A study of Homo sapiens with 9 samples.

Results

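The transcripts described here encode collagens, laminins and a small set of matrix glycoproteins, measured by RNA-seq in MHCC97H cells with and without RPL6 knockdown. The genes were chosen by name from the 60683 genes of the deposited table: 44 collagen alpha chains, 11 laminin chains and 10 glycoproteins (THBS1, FN1, NID1, NID2, SPARC, HSPG2, AGRN, FBN1, FBN2 and TGFBI), 65 protein-coding genes in all. At least 10 counts in 3 or more of the 9 libraries were found for 45 of them, comprising 25 collagens, 10 laminins and all 10 glycoproteins. SPARC reached that minimum only through the shCont libraries.

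MHCC97H is a human hepatocellular carcinoma cell line, and RPL6 is a protein of the large ribosomal subunit. The shCont group, labelled WT, carried a control hairpin, and the shRPL6-1 and shRPL6-2 groups, labelled RPL6 knockdown, each carried a different hairpin against RPL6, with 3 libraries per group. All groups were lentivirally transduced and puromycin-selected cells according to the study's methods, which do not say whether the knockdown lines were clones. The deposited columns of the knockdown libraries are nevertheless prefixed Si, and the study's oligonucleotide list gives the RPL6 sequences as duplexes with TT ends, the usual form of an siRNA, so how the RNA was delivered rests on the methods and labels alone. Separate cultures are not named for libraries with the same label, so the p-values below rest on a spread among libraries that may be technical.

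RPL6 itself was counted 7501, 8584 and 7095 times in the shCont libraries, 217, 189 and 233 times with shRPL6-1 and 177, 143 and 285 times with shRPL6-2. Total counts per library ranged from 13638468 to 16149480. The secretory markers of hepatocytes were nearly absent, with ALB, APOA2 and APOH at 0 counts in all 9 libraries, whereas HNF4A had 69 to 162 counts and the epithelial keratins KRT8 and KRT18 were abundant. The third shCont library stood apart from the other two: its genes deviated from their average level with a rank correlation of 0.243 with GC content, against -0.533 and -0.515 in those and -0.108 to 0.58 in the 6 knockdown libraries. GC content thus separated the first and second shCont libraries from all others. The counts of changed matrix and related genes are therefore also given without the third shCont library and, for the matrix genes, after GC correction. Fits without the third shCont library keep only the first and second, which GC content set apart. The tested matrix genes had a median transcript GC content of 55.3%, against 49% over all genes tested.

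Collagens are triple helices of 3 alpha chains. Fibrillar collagens give connective tissue its tensile strength, whereas type IV collagen forms the sheet-like network of basement membranes. Laminins are cross-shaped trimers of an alpha, a beta and a gamma chain that self-assemble on the cell surface through integrins and dystroglycan, and nidogens, perlecan (HSPG2) and agrin (AGRN) connect the laminin and type IV collagen networks. In liver, the space between hepatocytes and the sinusoids normally holds little basement membrane, and hepatocellular carcinoma is known for deposition of type IV collagen and laminin around tumour vessels and nodules.

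The strands complementary to RPL6 in the listed duplexes are shown because 3 matrix genes differed between the hairpins. They are taken here as the guide strands, and the ends of a guide cut from an expressed hairpin, and with them its seed, can lie at another base. Bases 2 to 8, the seed through which a guide can also pair with other transcripts, are in capitals.
shRPL6-1 guide: uUUGCGAAguuuaaccacc
shRPL6-2 guide: uAAUAAGCcacuagccagc
The full 19-base target of either guide was found in the transcripts of 0 of the 45 matrix genes. The letters TTCGCAA, complementary to the shRPL6-1 seed, occurred in the 3′ UTR of 0 of 45, against 1.05% of 12761 tested genes with an annotated 3′ UTR. The letters GCTTATT, complementary to the shRPL6-2 seed, occurred in 11 of 45 (24.4%), against 10.7% of those genes. These 11 were NID1, NID2, FBN1, FBN2, THBS1, COL4A1, COL4A2, COL4A5, COL5A1, COL12A1 and COL25A1.

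The stretches around the match are given for NID1, FBN1 and THBS1, whose levels differed between the hairpins, and for COL4A5, which fell with shRPL6-2. They are 3′ UTR sequence on GRCh38 in the direction of the transcript, with the match in capitals.
NID1, chr1:235975913-235975942, minus strand: ccactgaaggtGCTTATTaactgttctccc
FBN1, chr15:48410297-48410326, minus strand: tttgtaatggtGCTTATTaagaccaaagac
THBS1, chr15:39597471-39597500, plus strand: actgtatccatGCTTATTtgttctctactg
COL4A5, chrX:108696804-108696833, plus strand: aaaggtgttaaGCTTATTttgctttgtaag
With shRPL6-2, the median log2 fold change was -0.05 over the 10 tested matrix genes with a match and -0.02 over the 34 without. Over all tested genes the medians were -0.53 for the 1370 with a match and -0.01 for the 11391 without. With shRPL6-1 the same 1370 genes had a median of -0.22 and the others -0.01. A match in these letters is a description, and its part in any result below was not tested.

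In the shCont libraries the 45 genes ranged from 0.0455 to 81.7 FPKM (fragments scaled by library depth and by 1 length per gene). The sources used here do not give that length. For genes such as COL4A1 and FN1 it differed from that of the longest transcript, so the order of genes below holds for these FPKM only. Of these genes, 11 stood at 10 FPKM or more, 20 between 1 and 10, and 14 under 1. The highest was LAMB3, the beta chain of laminin-332, at 81.7 ± 4.6 FPKM (SD, n = 3), followed by AGRN at 79.8 ± 10.7 and LAMA5, the alpha chain of laminin-511, at 59.5 ± 7.3. The highest collagens were COL5A1, a fibril-nucleating chain, at 39.3 ± 11.7 FPKM, COL7A1, the anchoring fibril collagen, at 33.1 ± 5.4, and COL4A2 at 27.2 ± 11.3. LAMC1, the gamma chain of most laminins, stood at 32.7 ± 3.0 FPKM, TGFBI, a secreted adhesion protein, at 12.8 ± 2.3, and HSPG2 at 12.2 ± 4.0.

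**Figure D1:**
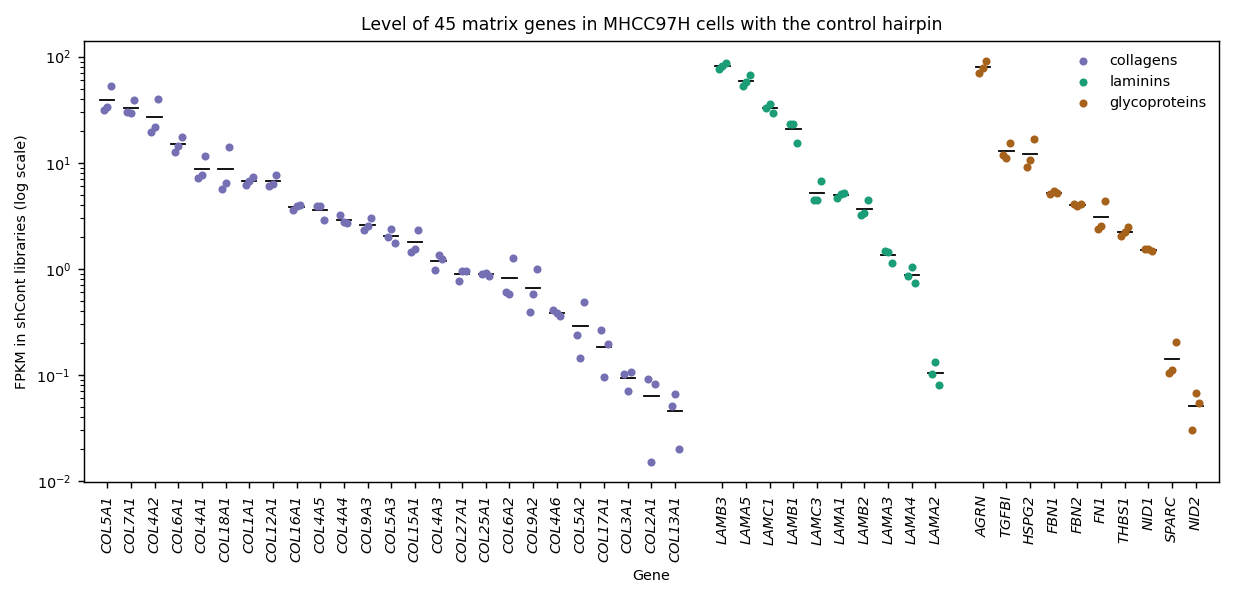
Level in FPKM (log axis) of each of the 45 matrix genes in the 3 shCont libraries, one point per library, with a black line at the mean, by class. LAMB3 at 81.7 and AGRN at 79.8 FPKM are at the top, and the levels span from there down to 0.0455 for COL13A1.

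Chains that assemble with each other were present at unequal levels. LAMB3 exceeded its laminin-332 partner LAMA3 by 61.5 ± 12 times in FPKM in the shCont libraries, and COL5A1 exceeded COL5A2 by 158 ± 65 times. COL6A1 exceeded COL6A2 by 19.95 ± 5.6 times, and COL6A3, the third chain of the classical type VI trimer, had 0 counts in all 9 libraries. LAMC1 and LAMB1 had a ratio of 1.62 ± 0.26. By counts they stood at 299 and 231 CPM in shCont, with longest transcripts of 7889 and 5766 bases. The direction of so small a ratio depends on the length used, and the larger ratios also carry the lengths behind the FPKM. COL1A1 had 6.75 ± 0.55 FPKM in shCont, while its partner COL1A2 had 2 counts in total over the 9 libraries.

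The other 20 of the 65 genes stayed under the minimum. COL22A1, COL6A3, COL6A5 and COL9A1 had 0 counts in every library, which allows up to 0.186 to 0.22 CPM (counts scaled to the library total), the value of 3 counts in the deepest and the shallowest library, for counting error only. The remaining 16 had counts in at least 1 library and none exceeded 16 in any, the highest being COL8A2.

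Matrix transcripts together took a larger share of the counts with shRPL6-1. The 65 genes held 0.607%, 0.650% and 0.814% of all counts in the shCont libraries, 0.992%, 0.822% and 0.990% with shRPL6-1 and 0.738%, 0.755% and 0.722% with shRPL6-2. All 3 shRPL6-1 libraries lay above all shCont libraries, although the lowest of them exceeded the highest shCont library by little, whereas the shRPL6-2 libraries lay within the shCont range. Collagens held 0.213%, 0.227% and 0.337% of counts in shCont, 0.456%, 0.361% and 0.469% with shRPL6-1 and 0.315%, 0.323% and 0.280% with shRPL6-2. The laminin share was 0.224% to 0.247% in shCont, 0.219% to 0.235% with shRPL6-1 and 0.191% to 0.202% with shRPL6-2, where all libraries lay below the lowest shCont library.

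Of the 45 genes, 44 passed the filter for testing, and NID2, with 3 to 10 counts per library, did not. With shRPL6-1, 8 matrix genes rose and 0 fell at an adjusted p under 0.05 (edgeR quasi-likelihood test, Benjamini-Hochberg over 16146 genes), against 4.44% higher and 4.07% lower of all genes tested. The 8 were THBS1, LAMA4, TGFBI, COL5A1, COL4A1, COL7A1, COL12A1 and COL16A1. At an unadjusted p under 0.05, 2 were lower, and DESeq2 called 1 lower. The other 36 did not pass, with log2 fold changes from -1.17 to 1.40. The median log2 fold change was 0.36 over the 44 genes and -0.01 over all genes tested, and 31 of the 44 were above 0.

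With shRPL6-2, 3 matrix genes rose (COL7A1, LAMA4 and COL4A6) and 5 fell (NID1, FBN1, COL4A5, LAMA3 and LAMC1), against 13.3% higher and 14.6% lower of all genes tested. Neither count was above the share of all genes, and the difference from that share was not tested. Without shCont replicate 3 there were 11 higher and 5 lower, against 22% and 21.6% of all genes. The median log2 fold change was -0.05 over the 44 and -0.03 over all genes, with 21 of the 44 above 0. Only COL7A1 and LAMA4 rose with both hairpins and 0 matrix genes fell with both, against 3.68% and 3.41% of all genes tested. At an unadjusted p under 0.05 in edgeR 1 matrix gene was lower with both, and DESeq2 called 0. All of these comparisons share the shCont libraries.

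These counts depended on single libraries, as did the share of all genes called. Shares of all genes are in either direction unless a direction is given. With shRPL6-1, 2 matrix genes were called without shCont replicate 1 and 2 without shCont replicate 2. Of all genes, 0.857% and 0.603% were called in those fits, against 8.51% from all libraries. Without shCont replicate 3, 18 matrix genes were called, all higher, against 15.6% higher and 13.3% lower of all genes. Leaving out shRPL6-1 replicate 1, 2 or 3 left 2, 3 and 2 calls, respectively (0.623%, 1.28% and 1.12% of all genes). Leaving out shRPL6-2 replicate 1 left 5 (3.82%). With shRPL6-2, 4 genes were called without shCont replicate 1 (9.52% of all genes) and 3 without shCont replicate 2 (8.39%), against 27.9% from all libraries. Without shCont replicate 3, 16 were called (11 higher, 5 lower), against 22% higher and 21.6% lower of all genes. Leaving out shRPL6-1 replicate 1 or 3 left 5 calls each (22.4% and 21.5% of all genes). Leaving out shRPL6-2 replicate 1 or 2 left 4 each (14.2% and 10.9%). Genes called with both hairpins numbered 10, all higher, without shCont replicate 3, against 13.8% higher of all genes in that fit, and 1 of the 10 was among the 2 called from all libraries. The number was 0 or 1 without any other library except shRPL6-2 replicate 3, with 0.463% to 4.92% of all genes called in those fits. Without shRPL6-2 replicate 3 it was 2 (6.55% of all genes), of which 1 was among the 2 called from all libraries.

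Correction for GC content moved the balance with shRPL6-2 further toward lower levels, to 2 higher and 11 lower, while correction for GC content and transcript length gave 7 higher and 7 lower, against 26.7% and 24.6% of all genes called in either direction. With shRPL6-1 these corrections gave 12 higher and 3 lower, and 14 higher and 1 lower, against 16.1% of all genes in each. THBS1 with shRPL6-1 and NID1, FBN1 and COL7A1 with shRPL6-2 passed in all 18 alternatives tried, and no call of the main fit changed sign in any of them.

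**Figure D2:**
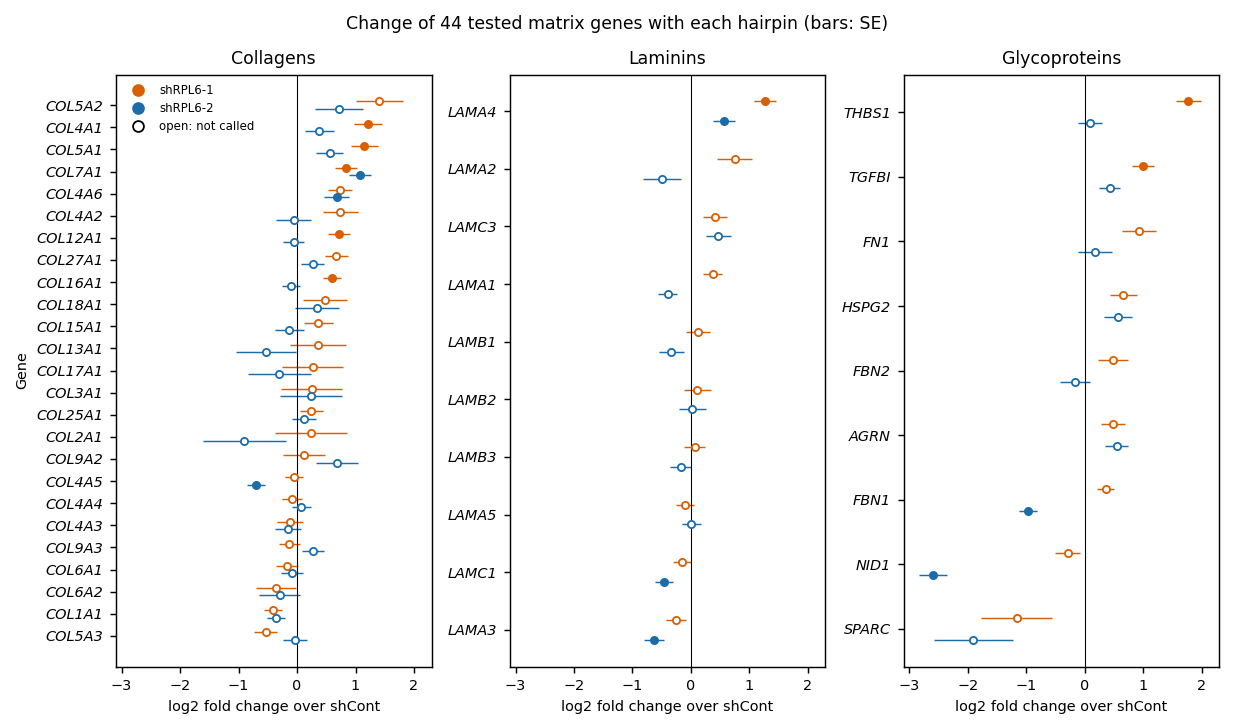
Log2 fold change over shCont with SE for the 44 tested matrix genes, in 3 panels by class and ordered by the shRPL6-1 value, with shRPL6-1 in orange and shRPL6-2 in blue. Filled points passed an adjusted p under 0.05. THBS1 (1.77) and NID1 (-2.59) show the widest separation between the hairpins.

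Among the fibrillar collagens and the collagens that decorate fibrils, changes were seen with shRPL6-1. COL5A1 (chr9:134641803-134844843), whose chain controls fibril initiation and diameter, stood at 444, 468 and 826 CPM in shCont, 1354, 1123 and 1383 with shRPL6-1 and 874, 924 and 765 with shRPL6-2. The shRPL6-1 libraries lay above all others, and shRPL6-2 overlapped with shCont only through the third shCont library. The rise was 2.22-fold with shRPL6-1 (log2 1.15, SE 0.23, adjusted p = 0.0202), and the shRPL6-2 value of 0.56 did not pass (adjusted p = 0.0892).

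COL12A1, a fibril-associated collagen, was at 84.8, 88.7 and 118 CPM in shCont, 148, 173 and 159 with shRPL6-1 and 92.5, 78.6 and 110 with shRPL6-2. COL16A1, another fibril-associated chain, was at 38.8, 42.4 and 49.0 CPM in shCont, 63.9, 65.1 and 68.1 with shRPL6-1 and 42.7, 41.6 and 36.4 with shRPL6-2. Both were higher in every shRPL6-1 library than in any other library. COL12A1 rose 1.64-fold (log2 0.72, SE 0.18, adjusted p = 0.0394) and COL16A1 1.51-fold (log2 0.60, SE 0.15, adjusted p = 0.0387). They passed in 9 and 7 of the 18 alternatives, and were lost without shCont replicate 1 or 2, any 1 of the shRPL6-1 libraries or shRPL6-2 replicate 1. After GC correction COL16A1 had a log2 fold change of 0.39 with shRPL6-1 (adjusted p = 0.0732) and of -0.50 with shRPL6-2 (adjusted p = 0.0214).

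Other fibrillar chains did not pass with either hairpin in the fit to all libraries. COL1A1, of type I collagen, was at 70.3, 75.8 and 92.6 CPM in shCont, 56.9, 61.7 and 60.7 with shRPL6-1 and 59.0, 61.98 and 65.5 with shRPL6-2. It was lower in every knockdown library than in any shCont library (log2 -0.41 and -0.36, adjusted p = 0.104 and 0.0986), and passed as lower with both after GC correction (-0.60 and -0.70, adjusted p = 0.0229 and 0.00778). COL5A2, the low-abundance partner of COL5A1, had the highest shRPL6-1 value of the genes that did not pass, 1.40 (SE 0.40, adjusted p = 0.0543), at 2.20, 1.33 and 4.99 CPM in shCont and 6.88, 6.20 and 9.37 with shRPL6-1. It passed in 5 of 18 alternatives, and without shCont replicate 3 its value was 2.09 (adjusted p = 0.00286).

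COL7A1 (chr3:48564073-48595267), which forms the anchoring fibrils under epithelia, rose with both hairpins. It was counted at 369, 365 and 539 CPM in shCont, 831, 650 and 793 with shRPL6-1 and 860, 1002 and 823 with shRPL6-2, with no overlap between shCont and either knockdown group. The rise was 1.79-fold with shRPL6-1 (log2 0.84, SE 0.19, adjusted p = 0.0283) and 2.11-fold with shRPL6-2 (log2 1.08, SE 0.19, adjusted p = 0.00562). The difference between the hairpins was 0.24 (SE 0.19, adjusted p = 0.658). The shRPL6-1 call passed in 11 of 18 alternatives and was lost without shCont replicate 1 or 2, without any 1 of the shRPL6-1 libraries and without shRPL6-2 replicate 1.

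The 6 type IV collagen genes lie in 3 pairs whose members start close together and are read in opposite directions. The nearest annotated starts are 127 bases apart for COL4A1 and COL4A2 on chromosome 13. For COL4A3 and COL4A4 on chromosome 2 they are 419 apart, and for COL4A5 and COL4A6 on chromosome X 380. COL4A6 has another listed start (chrX:108438422), farther from COL4A5, and which start was used in these cells was not tested. The COL4A1 and COL4A5 promoters (250 bases before to 50 after the start, RefSeq, GRCh38.p14) are shown because the data bear on these pairs, and the COL4A1 window also holds the COL4A2 start. Capitals mark the CCAAT box (letters CCAAT), the GC box (letters GGGCGG) and the TATA box (letters TATAAA) on either strand.
COL4A1, chr13:110307108-110307407, minus strand: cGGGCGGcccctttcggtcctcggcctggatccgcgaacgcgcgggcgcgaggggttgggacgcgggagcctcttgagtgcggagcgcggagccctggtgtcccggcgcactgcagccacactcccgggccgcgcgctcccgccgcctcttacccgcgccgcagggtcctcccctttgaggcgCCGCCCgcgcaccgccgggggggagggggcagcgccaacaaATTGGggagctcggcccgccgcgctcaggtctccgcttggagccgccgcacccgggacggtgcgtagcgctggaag
COL4A5, chrX:108439588-108439887, plus strand: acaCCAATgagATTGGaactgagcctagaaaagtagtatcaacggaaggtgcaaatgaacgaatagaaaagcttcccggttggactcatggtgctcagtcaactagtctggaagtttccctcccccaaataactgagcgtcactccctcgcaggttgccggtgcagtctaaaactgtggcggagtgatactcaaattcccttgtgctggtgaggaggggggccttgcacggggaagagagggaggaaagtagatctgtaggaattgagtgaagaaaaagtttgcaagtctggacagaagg
The motifs were counted in the first listed RefSeq promoter of each gene, for 36 matrix genes and for 27305 promoters in all. The CCAAT box occurred in 12 matrix promoters (33.3%, against 35.7%), the GC box in 26 (72.2%, against 44.6%) and the TATA box in 4 (11.1%, against 12%). None of these motifs contains another, and a match is a description of the sequence only.

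COL4A1 was at 138, 150 and 250 CPM in shCont, 449, 324 and 476 with shRPL6-1 and 260, 247 and 196 with shRPL6-2. It rose 2.32-fold with shRPL6-1 (log2 1.21, SE 0.25, adjusted p = 0.0203), with every shRPL6-1 library above all others, and had 0.38 with shRPL6-2 (adjusted p = 0.251). COL4A2 was at 441, 498 and 1017 CPM in shCont, 1203, 852 and 1204 with shRPL6-1 and 614, 758 and 514 with shRPL6-2. Its shRPL6-1 value of 0.74 (SE 0.30, adjusted p = 0.135) did not pass, and the groups overlapped through the third shCont library. Without that library it was 1.21 (adjusted p = 0.0042). The ratio of COL4A1 to COL4A2 in FPKM was 0.334 ± 0.042 in shCont, 0.445 ± 0.013 with shRPL6-1 and 0.438 ± 0.056 with shRPL6-2.

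COL4A5 and COL4A6 moved in opposite directions with shRPL6-2. COL4A5 was at 57.3, 58.3 and 48.3 CPM in shCont, 49.7, 52.5 and 56.4 with shRPL6-1 and 34.7, 30.3 and 36.3 with shRPL6-2, where it fell to 0.618 of shCont (log2 -0.69, SE 0.15, adjusted p = 0.0109). COL4A6 was at 5.46, 5.13 and 5.46 CPM in shCont, 9.51, 7.77 and 9.51 with shRPL6-1 and 9.68, 9.15 and 6.82 with shRPL6-2. Every knockdown library was above every shCont library for COL4A6, with a 1.597-fold rise for shRPL6-2 (log2 0.68, SE 0.21, adjusted p = 0.0342) and a value of 0.74 for shRPL6-1 just outside the threshold (adjusted p = 0.0506). The COL4A6 call passed in 7 of 18 alternatives, and after GC correction it was 0.44 (adjusted p = 0.0942). It was lost without shCont replicate 1 or 2, shRPL6-1 replicate 1 or 3, or shRPL6-2 replicate 1 or 2. COL4A5 passed in 17 of 18, the exception being the fit without shCont replicate 2.

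The ratio of COL4A6 to COL4A5 in FPKM was 0.109 ± 0.014 in shCont, 0.186 ± 0.024 with shRPL6-1 and 0.282 ± 0.066 with shRPL6-2, and the 3 groups did not overlap except that 1 shRPL6-2 library (0.206) lay below the highest shRPL6-1 library (0.210). COL4A3 and COL4A4 did not pass with either hairpin, with log2 fold changes from -0.16 to 0.07.

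**Figure D3:**
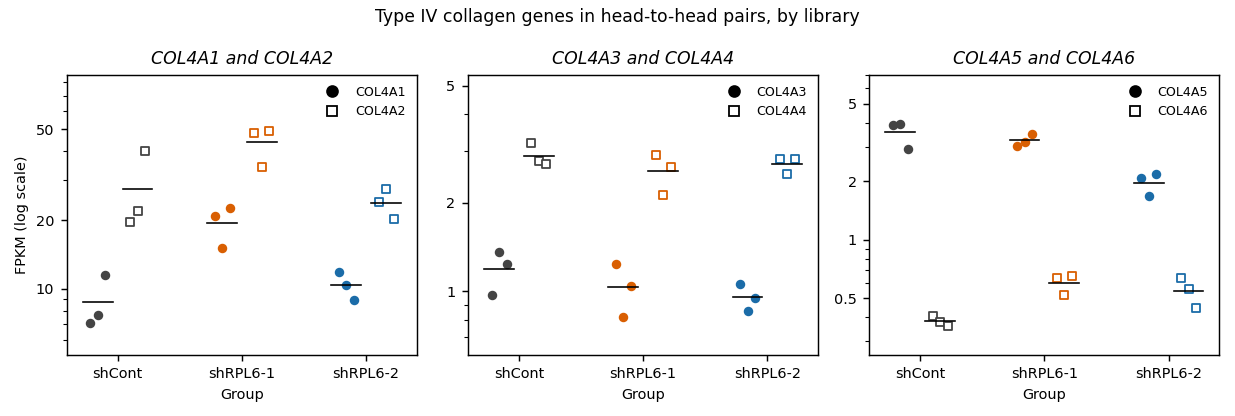
FPKM (log axis) of the 6 type IV collagen genes in each library, in 3 panels by head-to-head pair, with filled circles for COL4A1, COL4A3 and COL4A5, open squares for their partners and a black line at each group's mean. COL4A5 is lower and COL4A6 higher with shRPL6-2 than in shCont, and the groups overlap for COL4A3 and COL4A4.

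Among the 10 laminins, LAMA4 rose with both hairpins and LAMA3 and LAMC1 fell with shRPL6-2. LAMA4 (chr6:112107931-112254939), the alpha chain of laminins around vessels and in mesenchyme, was at 15.8, 19.5 and 15.3 CPM in shCont, 36.6, 46.1 and 39.7 with shRPL6-1 and 24.2, 21.1 and 29.4 with shRPL6-2, without overlap between the 3 groups. It rose 2.42-fold with shRPL6-1 (log2 1.27, SE 0.19, adjusted p = 0.00833) and 1.48-fold with shRPL6-2 (log2 0.56, SE 0.19, adjusted p = 0.0455). The shRPL6-1 call passed in 17 of 18 alternatives and the shRPL6-2 call in 6. Leaving out any 1 library ended the shRPL6-2 call, and without shCont replicate 3 its value was 0.50 (adjusted p = 0.0605).

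LAMB3, the chain with the highest FPKM in shCont, was at 434, 460 and 544 CPM in shCont, 533, 447 and 520 with shRPL6-1 and 405, 514 and 353 with shRPL6-2, with overlapping groups (log2 0.06 and -0.18, adjusted p = 0.842 and 0.464).

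LAMA3, the laminin-332 alpha chain, was at 24.8, 24.7 and 21.6 CPM in shCont, 20.1, 20.2 and 19.4 with shRPL6-1 and 15.8, 12.3 and 17.8 with shRPL6-2. It fell to 0.645 of shCont with shRPL6-2 (log2 -0.63, SE 0.18, adjusted p = 0.0259) and was at -0.25 with shRPL6-1 (adjusted p = 0.36). The 3 groups lay in separate ranges, with shRPL6-2 the lowest. The call passed in 11 of 18 alternatives and was lost without shCont replicate 1 or 2 and without shRPL6-2 replicate 1 or 2.

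LAMC1 was at 288, 316 and 292 CPM in shCont, 262, 267 and 280 with shRPL6-1 and 215, 178 and 258 with shRPL6-2. With shRPL6-2 it fell to 0.726 of shCont (log2 -0.46, SE 0.16, adjusted p = 0.0491), at the edge of the threshold, and it passed in 7 of 18 alternatives. The call was lost on leaving out any 1 library other than shCont replicate 3 or shRPL6-2 replicate 3. LAMA5 was at 863, 945 and 1229 CPM in shCont, 939, 909 and 983 with shRPL6-1 and 970, 1070 and 1011 with shRPL6-2, with overlapping groups. Its log2 fold changes were -0.10 and 0.01 (adjusted p = 0.699 and 0.979), and after GC correction the shRPL6-2 value was -0.44 (adjusted p = 0.0308). The ratio of LAMA5 to LAMA4 in FPKM was 69.9 ± 19.3 in shCont, 26.7 ± 3.7 with shRPL6-1 and 47.7 ± 9.5 with shRPL6-2.

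LAMA1 and LAMA2, alpha chains of embryonic and muscle laminins, had values of opposite sign with the hairpins, none past the threshold against shCont. LAMA1 stood at 0.37 with shRPL6-1 and -0.40 with shRPL6-2 (adjusted p = 0.159 and 0.0911), and the difference between the hairpins was -0.77 (SE 0.17, adjusted p = 0.0953). LAMB1, LAMB2 and LAMC3 had log2 fold changes from -0.34 to 0.47 with adjusted p of 0.117 or more. The exons of LAMA1 overlap genes on the opposite strand over 11.1% of their length, and reads of such overlaps cannot be told apart where the counting ignored strand, which no source used here states.

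**Figure D4:**
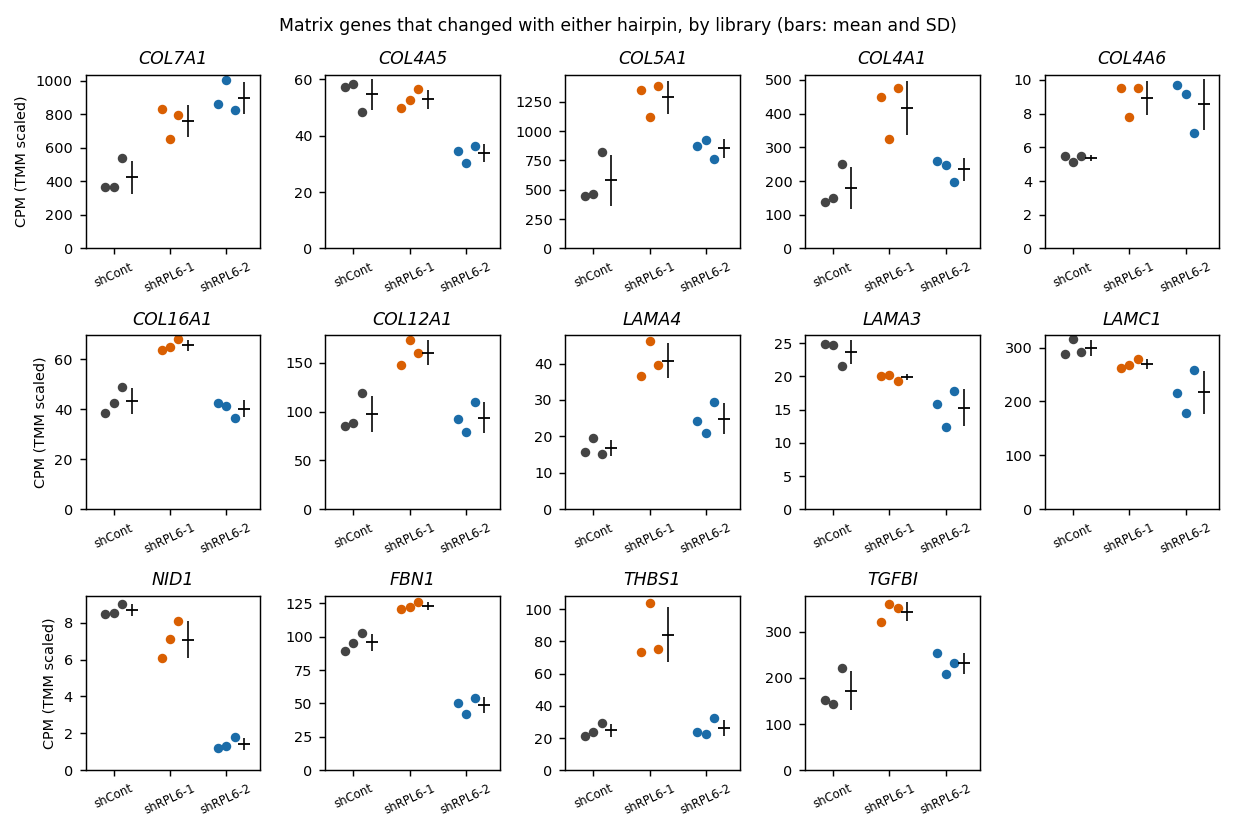
CPM (scaled by TMM, axes from 0) in each of the 9 libraries for the 14 matrix genes that passed with either hairpin, in 14 panels, one point per library, with the mean and SD of each group in black. THBS1, TGFBI, COL5A1, COL4A1, COL12A1 and COL16A1 are highest with shRPL6-1, and NID1, FBN1, COL4A5, LAMA3 and LAMC1 are lowest with shRPL6-2.

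The glycoproteins held the largest changes among the called matrix genes with each hairpin. THBS1 (ENSG00000137801, chr15:39581079-39599466), thrombospondin-1, a regulator of angiogenesis that also activates latent TGF-beta, was at 21.3, 23.5 and 29.3 CPM in shCont, 73.3, 104 and 75.4 with shRPL6-1 and 23.6, 22.8 and 32.2 with shRPL6-2. All shRPL6-1 libraries were far above the others, and shRPL6-2 overlapped with shCont. The rise was 3.41-fold with shRPL6-1 (log2 1.77, SE 0.21, adjusted p = 0.00428), and the shRPL6-2 value was 0.08 (SE 0.21, adjusted p = 0.786). Antisense genes cover 7.58% of the exonic length of THBS1.

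TGFBI was at 152, 144 and 222 CPM in shCont, 320, 361 and 351 with shRPL6-1 and 253, 208 and 233 with shRPL6-2. It rose 1.99-fold with shRPL6-1 (log2 0.99, SE 0.18, adjusted p = 0.0157), where every library lay above all others, and had 0.42 with shRPL6-2 (adjusted p = 0.102). COL4A1 passed in 13 of 18 alternatives and TGFBI and COL5A1 in 12 each. TGFBI and COL5A1 were lost without shCont replicate 1 or 2 or any 1 of the shRPL6-1 libraries, and COL4A1 without any of these except shRPL6-1 replicate 2.

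NID1 (ENSG00000116962, chr1:235975830-236065109), nidogen-1, which bridges laminin and type IV collagen, was at 8.46, 8.51 and 9.04 CPM in shCont, 6.07, 7.09 and 8.08 with shRPL6-1 and 1.18, 1.31 and 1.799 with shRPL6-2. The shRPL6-2 libraries lay far below the others. It fell to 0.166 of shCont with shRPL6-2 (log2 -2.59, SE 0.24, adjusted p = 0.000544), while the shRPL6-1 value was -0.29 (SE 0.21, adjusted p = 0.381). Its relative NID2 had 4, 10 and 8 counts in shCont, 3, 10 and 4 with shRPL6-1 and 5, 4 and 10 with shRPL6-2, too few for a comparison, and RTRAF on the opposite strand covers 30% of its exonic length.

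FBN1 (ENSG00000166147, chr15:48408313-48645721), fibrillin-1, the backbone of microfibrils, was at 89.6, 95.2 and 103 CPM in shCont, 121, 122 and 126 with shRPL6-1 and 50.1, 42.0 and 54.3 with shRPL6-2. The 3 groups did not overlap, with shRPL6-1 the highest and shRPL6-2 the lowest. FBN1 fell to 0.509 of shCont with shRPL6-2 (log2 -0.97, SE 0.15, adjusted p = 0.00368) and had 0.36 with shRPL6-1 (SE 0.15, adjusted p = 0.134). FBN2, the fibrillin most expressed in development, had 0.48 and -0.16 (adjusted p = 0.234 and 0.654).

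The large proteoglycans of basement membranes did not pass with either hairpin in the fit to all libraries. AGRN was at 957, 1054 and 1391 CPM in shCont, 1945, 1241 and 1556 with shRPL6-1 and 1524, 1836 and 1603 with shRPL6-2, where every library lay above shCont (log2 0.48 and 0.54, adjusted p = 0.144 and 0.0635), and without shCont replicate 3 its values were 0.66 and 0.72 (adjusted p = 0.028 and 0.0126). HSPG2 was at 188, 221 and 384 CPM in shCont, 455, 368 and 428 with shRPL6-1 and 379, 415 and 376 with shRPL6-2 (log2 0.66 and 0.56, adjusted p = 0.0998 and 0.0984). For HSPG2 the third shCont library lay inside the range of the knockdown libraries and the other shCont libraries below it, and without the third library its values were 1.03 and 0.94 (adjusted p = 0.00264 and 0.00134). Over the 18 alternatives, AGRN ran from 0.21 to 0.66 with shRPL6-1 and from 0.07 to 0.72 with shRPL6-2, passing in 1 and 2. HSPG2 ran from 0.45 to 1.03 and from 0.20 to 0.94, passing in 3 and 2. The fit without shCont replicate 3 keeps only the shCont libraries that GC content set apart. The transcript GC content was 67.53% for AGRN and 64.52% for HSPG2. LDLRAD2 on the opposite strand covers 11.7% of the exonic length of HSPG2.

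FN1, fibronectin, had 0.92 with shRPL6-1 (SE 0.29, adjusted p = 0.0708) and 0.17 with shRPL6-2 (adjusted p = 0.682). SPARC, a collagen-binding protein, had 10, 12 and 22 counts in shCont, 5, 7 and 7 with shRPL6-1 and 4, 0 and 6 with shRPL6-2. It did not pass (log2 -1.17 and -1.91, adjusted p = 0.228 and 0.0555). SPARC reached the minimum of 10 counts only through the shCont libraries, so its lower counts in every knockdown library follow from how it entered.

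The 2 hairpins were also compared directly. Between shRPL6-2 and shRPL6-1, 3 matrix genes were lower and 0 higher, against 0.316% lower and 0.0681% higher of all genes tested, and all 3 were glycoproteins. At an unadjusted p under 0.05 in edgeR 1 was higher, and DESeq2 called 0 higher. The difference was -2.30 for NID1 (SE 0.24, adjusted p = 0.00389), -1.68 for THBS1 (SE 0.21, adjusted p = 0.00972) and -1.33 for FBN1 (SE 0.15, adjusted p = 0.00484). The median difference was -0.43 over the 44 genes, 33 of them below 0, and -0.01 over all genes tested. The count was 7 without shCont replicate 3 (1.18% of all genes) and 1, NID1, without shRPL6-2 replicate 1 (0.0484%). Without shRPL6-2 replicate 2 THBS1 was lost. RPL6 itself did not differ between the hairpins past the threshold (log2 0.10, SE 0.22, adjusted p = 0.878).

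The 41 matrix genes that did not pass between hairpins had differences from -1.24 to 0.57. Apart from THBS1, 5 genes passed with shRPL6-1 and not with shRPL6-2. Their differences were -0.83 for COL4A1, -0.57 for TGFBI, -0.59 for COL5A1, -0.77 for COL12A1 and -0.71 for COL16A1, with adjusted p of 0.24, 0.285, 0.391, 0.129 and 0.0953. They were thus not shown to differ between the hairpins. Every shRPL6-2 library lay below every shRPL6-1 library for each of them, as for 20 of the 44 tested matrix genes. Choosing genes that passed with shRPL6-1 alone favours such a separation.

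**Figure D5:**
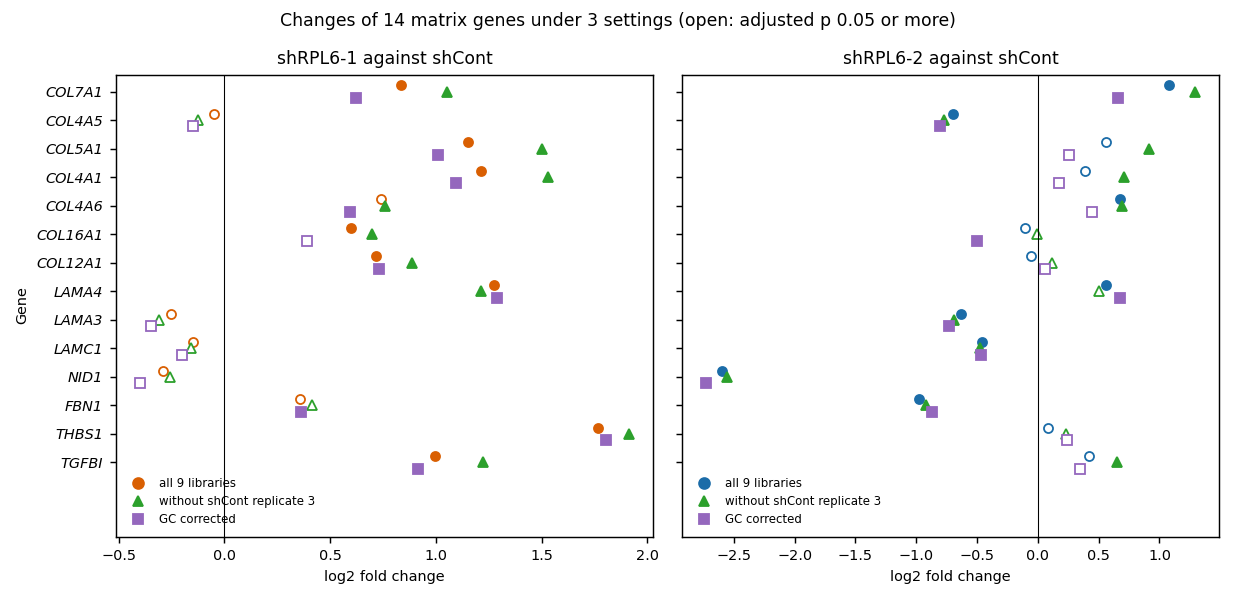
Log2 fold change over shCont of the 14 matrix genes that passed with either hairpin, in 2 panels by hairpin, from all 9 libraries (circles), without shCont replicate 3 (triangles) and after GC correction (squares), with filled symbols where the adjusted p was under 0.05. For shRPL6-2, COL5A1, COL4A1 and TGFBI are filled only without shCont replicate 3, and NID1, FBN1, COL4A5, LAMA3, LAMC1 and COL7A1 are filled in all 3 settings.

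Genes that act on the matrix were taken from 4 lists. Their counts stand against a background over the whole table of 4.44% higher and 4.07% lower for shRPL6-1, 13.3% and 14.6% for shRPL6-2 and 3.68% and 3.41% for both hairpins. Without shCont replicate 3 this background was 15.6% and 13.3%, 22% and 21.6%, and 13.8% and 12%. Of the genes of collagen synthesis and crosslinking, 29 of 33 were tested. With shRPL6-1 0 of them passed in edgeR (4 higher and 2 lower at an unadjusted p under 0.05, and 3 and 1 by DESeq2), and the shRPL6-2 hairpin raised 1 (below the share of all genes) and lowered 5 (near it), with median log2 fold changes of -0.01 and -0.02. Without shCont replicate 3 the counts were 5 higher and 2 lower for shRPL6-1, and 6 higher and 7 lower for shRPL6-2. PLOD2, a lysyl hydroxylase that shapes collagen crosslinks, was at 49.0, 50.1 and 33.8 CPM in shCont, 28.9, 28.6 and 33.6 with shRPL6-1 and 20.5, 22.2 and 24.2 with shRPL6-2. It was the lowest with shRPL6-2 without overlap, where it fell to 0.503 of shCont (adjusted p = 0.00667). PCOLCE2, an enhancer of procollagen processing, fell to 0.541 with shRPL6-2 (adjusted p = 0.0259).

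Of the matrix proteases and their inhibitors, 28 of 37 were tested. With shRPL6-1 2 rose and 1 fell, with shRPL6-2 3 rose and 8 fell, and the same 2 rose and the same 1 fell with both (median -0.09 and -0.27). Without shCont replicate 3 the counts were 4 higher and 4 lower, 4 higher and 7 lower, and 3 higher and 4 lower with both. ADAM15, a membrane metalloprotease with an integrin-binding domain, rose 2.50-fold and 2.66-fold (adjusted p = 0.00428 and 0.00124). MMP24, a membrane-type matrix metalloprotease, rose 3.08-fold and 3.14-fold (adjusted p = 0.0449 and 0.0201), and ADAM10, a sheddase, fell to 0.508 and 0.471 of shCont (adjusted p = 0.0146 and 0.00457). MMP24 was at 8.46, 11.6 and 31.2 CPM in shCont, with the third library close to the lowest knockdown library (36.1 CPM, with shRPL6-2).

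Of the other matrix glycoproteins and proteoglycans, 30 of 43 were tested, with 5 higher and 1 lower for shRPL6-1 and 2 higher and 6 lower for shRPL6-2 (median 0.26 and 0.09). Without shCont replicate 3 they were 11 higher and 3 lower, and 8 higher and 5 lower. CCN1, a matricellular protein, was at 117, 131 and 159 CPM in shCont, 529, 451 and 522 with shRPL6-1 and 275, 285 and 223 with shRPL6-2. It rose 3.68-fold and 1.92-fold (adjusted p = 0.000716 and 0.00572), with 3 separate ranges. Its relative CCN2 rose 2.50-fold and 1.52-fold (adjusted p = 0.00562 and 0.0249), and ECM1 fell to 0.452 and 0.419 (adjusted p = 0.0292 and 0.00952).

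Of the 24 receptors for collagen and laminin, 21 were tested, 0 rose in edgeR (1 with each hairpin at an unadjusted p under 0.05, and 1 with each by DESeq2), and 2 fell with shRPL6-1 and 7 with shRPL6-2 (median -0.22 and -0.46). Without shCont replicate 3 there were 3 higher and 5 lower for shRPL6-1, and 2 higher and 8 lower for shRPL6-2. SDC3, a syndecan, fell to 0.433 and 0.532 of shCont (adjusted p = 0.0103 and 0.00936). ITGAV, the alpha-v integrin chain, was at 138, 135 and 69.0 CPM in shCont, 53.6, 61.4 and 62.01 with shRPL6-1 and 48.0, 37.9 and 47.4 with shRPL6-2, and fell to 0.518 and 0.390 (adjusted p = 0.0409 and 0.00597). The third shCont library lay close to the knockdown libraries for this gene.

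Markers of other cell types that make matrix were low in all groups. The summed level of 11 markers of fibroblasts and stellate cells was 11.6 to 19.2 CPM in shCont, 12.4 to 15.8 with shRPL6-1 and 9.02 to 13.9 with shRPL6-2, with LRAT at 0 in all libraries. DCN and LUM stand in both this list and that of the other matrix glycoproteins. The 9 endothelial markers summed to 33.3 to 49.6, 27.4 to 30.7 and 18.1 to 22.4 CPM, mostly from CDH5, with KDR at 0 in all libraries. The 8 leukocyte markers summed to 8.25 to 23.0, 8.50 to 26.9 and 9.90 to 18.2 CPM, mostly from CD68, with CD3E and MS4A1 at 0. The 16 hepatocyte markers summed to 1580 to 2510, 2250 to 2790 and 1960 to 2920 CPM, almost all from KRT8 and KRT18. The part of these cell types in the matrix results was not tested.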

How the data were processed

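RNA-seq libraries of MHCC97H cells (3 groups of 3) were analysed from the authors' deposited table, which holds whole-number read counts and FPKM per gene and library. According to the submitters' processing notes the reads were processed with CASAVA 1.8, HISAT2, StringTie and edgeR on GRCh38, and the extraction protocol names a stranded poly-A kit. Not given in the sources used here were the counting program, its strand setting and the annotation. Column prefixes NC, Si61 and Si62 were matched to shCont, shRPL6-1 and shRPL6-2. The FPKM values deposited by the authors implied 1 length per gene and were used only for levels and chain ratios.

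The counts were fitted with edgeR 4.0.16 in R 4.3.3 (filterByExpr, TMM, quasi-likelihood F test) on all 9 libraries with group as the only term, and p-values were adjusted by Benjamini-Hochberg over 16146 genes, calling at 0.05. Each SE was obtained from the log2 fold change and its F statistic. CPM are TMM-scaled. The common biological coefficient of variation was 0.239. Values in every library were given for each gene called with either hairpin and for the 3 highest by shCont FPKM of each class, and other genes were named from ranges after their values were seen. From each of the 4 related lists up to 4 genes called with both hairpins were named, or else the 2 with the smallest adjusted p. The members, lists and tests were chosen with earlier results of these data known. 1 gene that the naming rule takes in and 1 gene of the related lists stayed in the fit but are not reported here or counted. The fit was tested on simulated data.

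Alternatives were RLE size factors, DESeq2 1.42.0, no filter, a filter of 10 counts in 3 libraries, a replicate block, GC and length corrections (spline offsets; GC known for 99.1% of tested genes), only the groups compared, and leaving out each library. Guide sequences came from the study's supplementary oligonucleotide list and 3′ UTRs from the longest coding transcript of GENCODE (GRCh38). Intervals and floors cover counting error only.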

Additional observations from a re-analysis of the deposited data

Results flagged for a closer look

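The levels of 3 matrix genes differed between the hairpins by the test of the difference itself, with shRPL6-2 lower than shRPL6-1 in each. The log2 difference was -2.302 for NID1, -1.685 for THBS1 and -1.332 for FBN1, and in all 3 every shRPL6-2 library lay below every shRPL6-1 library. NID1 and FBN1 were below shCont with shRPL6-2, whereas THBS1 was above shCont with shRPL6-1.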

How the results depend on the processing

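For shRPL6-1, shRPL6-2, the difference between hairpins and both hairpins, the main fit called 8, 8, 3 and 2 matrix genes. Of all genes it called 8.51%, 27.9%, 0.384% and 7.09% in either direction. Shares in brackets below are of all genes, in the same order. RLE size factors and the filter of 10 counts in 3 libraries gave the same counts. DESeq2 gave 13, 9, 8 and 3 (16.3%, 32.9%, 2.17% and 12.9%). No filter gave 6, 4, 3 and 1 (1.92%, 9.43%, 0.12% and 1.57%). Fitting only the groups compared gave 6, 4, 3 and 1 (5.31%, 18%, 0.496% and 3.87%). GC correction gave 15, 13, 8 and 4 (16.1%, 26.7%, 1.13% and 12.2%). GC and length correction gave 15, 14, 4 and 7 (16.1%, 24.6%, 1.11% and 11.9%). No pairing by replicate number was seen: same-numbered libraries correlated at -0.466 to 0.252, 1 of 9 pairs was above 0.1, and 3 of 18 correlated best with their own number. These correlations include the GC trend of each library, which could hide a pairing, so they cannot exclude it. With the replicate block the counts were 1, 4, 1 and 0 (0.198%, 13%, 0.031% and 0.142%). With the block and GC correction they were 8, 11, 3 and 2 (7.26%, 17.6%, 0.155% and 5.56%). Leaving out 1 library at a time gave 2 to 18, 3 to 16, 1 to 7 and 0 to 10. The shares of all genes in those fits were 0.603% to 29%, 8.39% to 43.6%, 0.0484% to 1.18% and 0.463% to 25.8%. LAMA5 with shRPL6-2 changed sign from 0.01 to -0.44 with GC correction; the cause of these shifts was not tested. Precision is limited by 3 libraries per group and by the low counts of genes such as NID1 and COL4A6. It is also limited by the split in GC trend between the third shCont library and the first and second.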
